A study of Mus musculus with 4 samples.

Results

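The peaks described here are NANOG-bound sites in mouse embryonic stem cells (ESCs) with no published OCT4 site within 1 kb. They carry none of the deposited chromatin class marks, but lie within 10 kb of a NANOG peak that does have such an OCT4 site. The deposited peak table holds 21066 windows of 0.351 kb, centred on peak summits. It flags each for an OCT4 site within 1 kb and for the active promoter, active enhancer and repressed chromatin classes. The OCT4 sites were called from published data of another ESC line, so the flag does not map OCT4 in the cells used here. A window was taken as bound when its signal was 0.9 RPKM (its read count corrected for window length and for sequencing depth) or more in either condition, so membership was chosen by values of the same measurement that is compared below. Of 16608 bound peaks, 11151 carried none of the 4 flags, and 673 of these had their window centre within 10 kb of the centre of a bound peak with an OCT4 site on the same chromosome. These 673 peaks, 4.05% of all bound peaks, are called neighbours. The 3930 bound peaks with an OCT4 site are called co-bound, the 603 co-bound peaks that are nearest to at least 1 neighbour are called partners, and the remaining 10478 unflagged peaks are called distant.

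NANOG was immunoprecipitated from ZHBT-O4AID ESCs of strain 129SV before (Uninduced, 2 libraries) and after 1.5 h with 500 µM indole-3-acetic acid (IAA, 2 libraries). All 4 libraries come from cells of the same genotype, written in the labels as Oct4-/-; TetOFF Oct4; CAG Oct4AID; CAG Tir1. In such cells the endogenous Oct4 gene is lost, a tetracycline-controlled Oct4 copy is kept silent with doxycycline, and OCT4 is supplied from a constitutive CAG promoter joined to a degron that auxin activates (AID). Tir1, also under CAG, couples the degron to the ubiquitin ligase machinery once auxin is added, so that the fusion protein is destroyed. Both conditions were grown in N2B27 with PD03, Chiron and LIF and with doxycycline, and the labels give one NANOG antibody, from Bethyl labs, for all 4 libraries, while the antibody list of the study gives a rat NANOG antibody of another supplier. It is a single engineered line, and each library is a separate immunoprecipitation. Nothing in the labels says that the libraries came from separate cultures, so no p-value below measures the spread between cultures.

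NANOG is a homeodomain transcription factor and OCT4 (gene Pou5f1) a POU-domain factor, and with SOX2 they form the centre of the network that keeps ESCs pluripotent. OCT4 recognises the octamer motif, often beside a SOX motif, and the factors occupy many enhancers together. In these libraries the median log2 change after IAA was 0.39 at co-bound peaks and 0.76 over all bound peaks. The question put to the neighbours is whether the smaller change extends to peaks that only lie near a co-bound one.

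The octamer ATGCAAAT, read on both strands of the window in the mouse reference GRCm38, was rare among the neighbours. It was present in 6 of 673 neighbour windows (0.892%), in 44 of 603 partner windows (7.30%), in 1.33% of distant windows and in 2.96% of all bound windows of the same length. With any base allowed where N stands in ATGNAAAT (a string that includes the octamer), the shares were 4.61% of neighbours, 14.9% of partners, 5.73% of distant peaks and 8.13% of all bound peaks. The neighbours thus resembled distant peaks more than their partners in this letter string. Neighbours and distant peaks both lack the OCT4 flag and partners carry it, so the rule that formed the classes bears on this contrast. The sequences below are 101 bases each of the plus strand of GRCm38, with the octamer (on either strand) in capitals. They show 5 of the neighbour windows that hold one, each named after the gene with the nearest protein-coding transcript start. These are followed by 4 partner windows, also picked because they hold one. Places are chr10:4292610-4292710 (Akap12), chr2:150665707-150665807 (Acss1), chr5:53600157-53600257 (Rbpj), chr9:42112630-42112730 (Sorl1) and chr9:54865092-54865192 (Ireb2), all in introns of the named gene, then chr2:150657550-150657650 (Acss1), chr1:12954339-12954439 (Slco5a1), chr14:48730286-48730386 (Otx2) and chr2:167530129-167530229 (Snai1).
Akap12 neighbour: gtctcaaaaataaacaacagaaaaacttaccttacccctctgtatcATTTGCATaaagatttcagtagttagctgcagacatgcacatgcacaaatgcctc
Acss1 neighbour: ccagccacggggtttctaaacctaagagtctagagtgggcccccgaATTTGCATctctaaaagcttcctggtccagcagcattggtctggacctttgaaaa
Rbpj neighbour: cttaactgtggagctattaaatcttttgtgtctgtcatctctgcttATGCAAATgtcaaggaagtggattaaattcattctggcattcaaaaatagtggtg
Sorl1 neighbour: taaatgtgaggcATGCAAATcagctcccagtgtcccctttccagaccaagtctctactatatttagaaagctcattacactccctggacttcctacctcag
Ireb2 neighbour: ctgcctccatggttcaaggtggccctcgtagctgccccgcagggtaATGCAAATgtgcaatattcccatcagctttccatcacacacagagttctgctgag
Acss1 co-bound: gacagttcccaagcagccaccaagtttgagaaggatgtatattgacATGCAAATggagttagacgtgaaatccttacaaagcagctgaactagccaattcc
Slco5a1 co-bound: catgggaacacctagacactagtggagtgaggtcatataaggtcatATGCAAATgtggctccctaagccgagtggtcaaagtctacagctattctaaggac
Otx2 co-bound: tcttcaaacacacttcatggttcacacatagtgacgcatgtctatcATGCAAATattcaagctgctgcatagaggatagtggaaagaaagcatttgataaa
Snai1 co-bound: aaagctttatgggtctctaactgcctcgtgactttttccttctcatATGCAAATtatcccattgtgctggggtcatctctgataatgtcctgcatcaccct
The pair near Acss1, the only one printed here with both windows, had the octamer in each. There it began 12 bp from the centre of the partner window and 105 bp from the centre of the neighbour window. Among the 5 neighbours it began from 55 bp (Rbpj) to 163 bp (Sorl1) from the window centre, where the peak summit is. A match is a string of letters and not a measured OCT4 site.

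The other strings searched on both strands differed little between classes. CATTGT, a core of SOX sites, was in 36.3% of neighbours, 33.7% of partners, 37.1% of distant peaks and 37.0% of all bound peaks. TAATGG, a homeodomain core of the kind NANOG binds, was in 19.6%, 20.2%, 22.2% and 20.9% in the same order. TCAAGGTCA, the site of the orphan nuclear receptor ESRRB, was in 4.75%, 4.31%, 3.91% and 3.99%, and GGGTGTGG, the site of Krüppel-like factors, in 6.09%, 7.79%, 6.45% and 6.33%. The next sequences are the central 101 bases of 3 pairs that are returned to below, the closest pair (Mkln1), the pair with the strongest neighbour (Wdr11) and a pair near a naive pluripotency gene (Tfcp2l1), with CATTGT on either strand in capitals where it occurs. Their places on the plus strand of GRCm38 are chr6:31372761-31372861 and chr6:31372257-31372357, chr7:129430040-129430140 and chr7:129421083-129421183, and chr1:118687804-118687904 and chr1:118689877-118689977, the neighbour first in each pair.
Mkln1 neighbour: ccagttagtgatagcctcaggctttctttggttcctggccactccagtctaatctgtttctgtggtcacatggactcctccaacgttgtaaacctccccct
Mkln1 co-bound: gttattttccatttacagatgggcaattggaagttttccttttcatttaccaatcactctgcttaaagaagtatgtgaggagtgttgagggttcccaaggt
Wdr11 neighbour: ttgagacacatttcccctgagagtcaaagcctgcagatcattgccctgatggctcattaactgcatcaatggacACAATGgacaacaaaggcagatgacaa
Wdr11 co-bound: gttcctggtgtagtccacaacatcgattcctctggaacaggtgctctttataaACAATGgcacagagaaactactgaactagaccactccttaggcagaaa
Tfcp2l1 neighbour: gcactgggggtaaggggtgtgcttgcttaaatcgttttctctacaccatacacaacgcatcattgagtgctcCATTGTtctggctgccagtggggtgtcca
Tfcp2l1 co-bound: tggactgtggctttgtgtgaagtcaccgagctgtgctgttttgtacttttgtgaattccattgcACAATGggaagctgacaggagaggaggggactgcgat
In the pairs near Wdr11 and Tfcp2l1 the string stood within 24 bp of the centre in the neighbour and in the partner alike, while the central bases of the closest pair held none.

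By position in genes, neighbours were placed much like both distant peaks and partners. The window centre was in an intron for 364 neighbours (54.1%, against 54.1% of distant peaks and 52.9% of partners). It was intergenic for 280 (41.6%, against 40.05% and 41.96%). A further 19 were in non-coding exons, 7 in exons of untranslated regions and 3 in coding exons. The nearest protein-coding transcript start lay at a median of 20.8 kb for neighbours, 20.2 kb for partners and 26.3 kb for distant peaks. Within 1 kb of one lay 14 neighbours (2.08%), 5.80% of partners and 3.24% of distant peaks. Median GC content was 46.2% for neighbours, 46.2% for partners and 46.4% for distant peaks. Neighbours occurred on 20 chromosomes, and 333 of 673 lay at the larger coordinate of their pair. The distance to the partner ran from 504 to 9995 bp with a median of 5794 bp (quartiles 3446 and 7818 bp), so no neighbour window overlapped a partner window. Of the partners, 538 had 1 neighbour, 61 had 2, 3 had 3 and 1 had 4.

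The recovered library sizes were 5406307 to 19634763 reads, and 1 read was worth 0.346, 0.244, 0.145 and 0.527 RPKM in Uninduced 1, Uninduced 2, IAA 1 and IAA 2. The median neighbour therefore rested on 6, 12, 30 and 8 reads in the same order, and 21, 5, 0 and 6 neighbours rested on a single read. No window was listed at 0, so a window with no read cannot be told from one with 1. RPKM is relative to the reads of a library and no spiked-in reference was used, so levels are relative to each library's total.

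NANOG signal was higher in both IAA libraries than in both Uninduced libraries at the neighbours as a group. The median over the 673 peaks, as log2(RPKM + 0.1), was 1.12 in Uninduced 1 and 1.60 in Uninduced 2, and 2.16 in IAA 1 and 2.11 in IAA 2. The conditions did not overlap, and the Uninduced libraries differed more from each other than the IAA libraries did. The difference of condition means was 0.77 (pooled SD between libraries 0.24, n = 2 per condition; exact permutation test, two-sided, p = 0.333, the smallest that 2 libraries against 2 allow). In RPKM the medians were 2.08, 2.93, 4.35 and 4.22. Quantile normalization, which gives all libraries one distribution, lowered the median change of all bound peaks from 0.76 to 0.04 and this difference to 0.11, so the higher level after IAA holds on the deposited scaling. Comparisons with other peaks of the same library, which follow, are relative to the shared shift.

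Neighbours and distant unflagged peaks changed by amounts that differed by less than the spread between libraries. The library median of neighbours minus that of distant peaks was 0.00 and 0.12 in the Uninduced libraries and 0.15 and 0.00 in the IAA libraries, so the conditions overlapped fully. The change of this difference was 0.01 (pooled SD 0.10, n = 2 per condition; exact permutation test, two-sided, p = 1). Because library medians move in steps of whole reads, the same was computed with library means, added after seeing the data. Means of neighbours exceeded means of distant peaks by 0.14 in Uninduced 1, 0.16 in Uninduced 2, 0.15 in IAA 1 and 0.15 in IAA 2, and the change was -0.0019 (pooled SD 0.010), with single library pairs from -0.012 to 0.0083. Neighbours thus had a slightly higher signal than distant peaks in each of the 4 libraries, and the gap was alike before and after IAA. On the scale of medians single library pairs ran from -0.12 to 0.15. These ranges come from 2 libraries per condition and leave out the spread between peaks, so they do not bound the difference.

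A stricter comparison used the 2402 distant peaks that, like every neighbour, have another bound peak within 10 kb. Here the median difference was 0.00, 0.12, 0.10 and 0.00 in Uninduced 1, Uninduced 2, IAA 1 and IAA 2, and its change was -0.01 (pooled SD 0.08; exact permutation test, two-sided, p = 1). With library means the gap was 0.069, 0.073, 0.068 and 0.059, and the change -0.0079 (pooled SD 0.0048). Both IAA values of the means were below both Uninduced values, but by at most 0.014 of a log2 unit (exact permutation test, two-sided, p = 0.333).

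The neighbours did differ from the co-bound peaks beside them. The median of neighbours minus the median of the 603 partners was -0.56 in Uninduced 1 and -0.65 in Uninduced 2, and -0.13 in IAA 1 and -0.32 in IAA 2. The conditions did not overlap. Neighbours were weaker than partners in every library, and the gap was smaller after IAA, by 0.38 (pooled SD 0.10, n = 2 per condition; exact permutation test, two-sided, p = 0.333, the smallest possible). All 4 pairs of an IAA with an Uninduced library gave a difference in this direction, from 0.25 to 0.51. Library means gave -0.60, -0.69, -0.23 and -0.25 and a change of 0.41 (pooled SD 0.05).

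**Figure D1:**
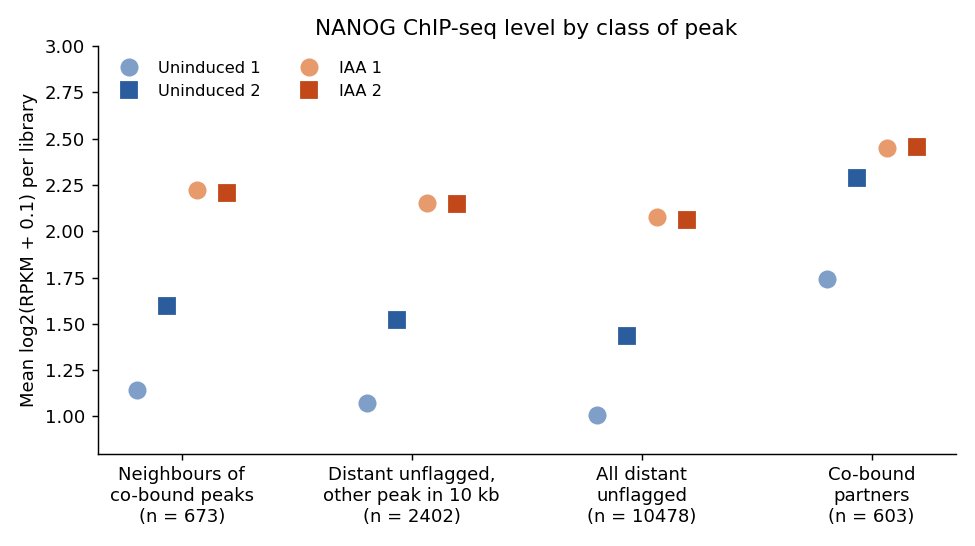
Mean log2(RPKM + 0.1) of each library (y axis; blue, Uninduced; orange, IAA; circles, replicate 1; squares, replicate 2) in 4 classes of peaks (x axis). Neighbours go from 1.14 and 1.59 to 2.22 and 2.20, with the same spacing as distant unflagged peaks (1.01 and 1.44 to 2.08 and 2.06), while partners start higher, at 1.74 and 2.29, and reach 2.45 in both IAA libraries.

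Signal strength is one property in which the classes differ, and at like strength the comparison of neighbours with distant peaks gave another value. Bound peaks were split into 4 equal groups by mean log2 signal over all libraries. In the weakest group the median log2 change was 1.03 for 143 neighbours, 0.95 for 2843 distant peaks and 0.53 for 58 partners. In the second it was 0.73 for neighbours, 0.81 for distant peaks and 0.42 for partners, and in the third 0.79, 0.80 and 0.33. In the strongest group it was 0.86 for 183 neighbours, 0.93 for 2153 distant peaks and 0.54 for 260 partners. Neighbours were above distant peaks in the weakest group and below them in the other 3, and above partners in all 4. The difference of library medians, averaged over the 4 groups, was 0.00 and 0.04 in the Uninduced libraries and -0.02 and -0.05 in the IAA libraries for neighbours minus distant peaks. Its change was -0.06 (pooled SD 0.02; exact permutation test, two-sided, p = 0.333, the smallest possible), where the conditions overlapped without the split. For neighbours minus clustered distant peaks the values were 0.00 and -0.004, then -0.03 and -0.05, and the change was -0.04 (pooled SD 0.01; exact permutation test, two-sided, p = 0.333). With library means, added after seeing the data, the conditions overlapped within the groups, and the changes were 0.0031 and -0.0033 (exact permutation test, two-sided, p = 1 for each).

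The median change showed no order by distance to the co-bound peak. The median log2 change was 0.50 for the 6 neighbours under 1 kb away, 0.93 for the 67 at 1 to 2 kb, 0.83 for the 197 at 2 to 5 kb and 0.83 for the 403 at 5 to 10 kb. Farther unflagged peaks had medians of 0.86 at 10 to 20 kb, 0.89 at 20 to 50 kb, 0.87 at 50 to 100 kb and 0.87 beyond 100 kb. The share of peaks with a positive change was 83.3%, 89.6%, 89.8% and 92.8% in the 4 nearer classes and 90.9%, 92.9%, 91.4% and 90.4% in the 4 farther ones. The share with both IAA values above both Uninduced values was 33.3%, 64.2%, 66.0% and 69.7% in the 4 nearer classes and 67.1%, 69.95%, 68.7% and 66.55% in the farther ones. Both shares thus increased with distance over the 4 nearer classes, the first of which holds 6 peaks, and no test was made of this. Across the 673 neighbours Pearson's r of log2 distance and log2 change was 0.0058 and Spearman's rho 0.0032, as descriptions, since all points share the same 4 libraries. The library median of neighbours under 2 kb minus that of neighbours at 5 to 10 kb was 0.00 and 0.23 in the Uninduced libraries and 0.05 and 0.00 in the IAA libraries. Its change was -0.09 (pooled SD 0.12; exact permutation test, two-sided, p = 1), and on library means it was 0.04 (pooled SD 0.08), so the sign was not settled and the conditions overlapped.

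**Figure D2:**
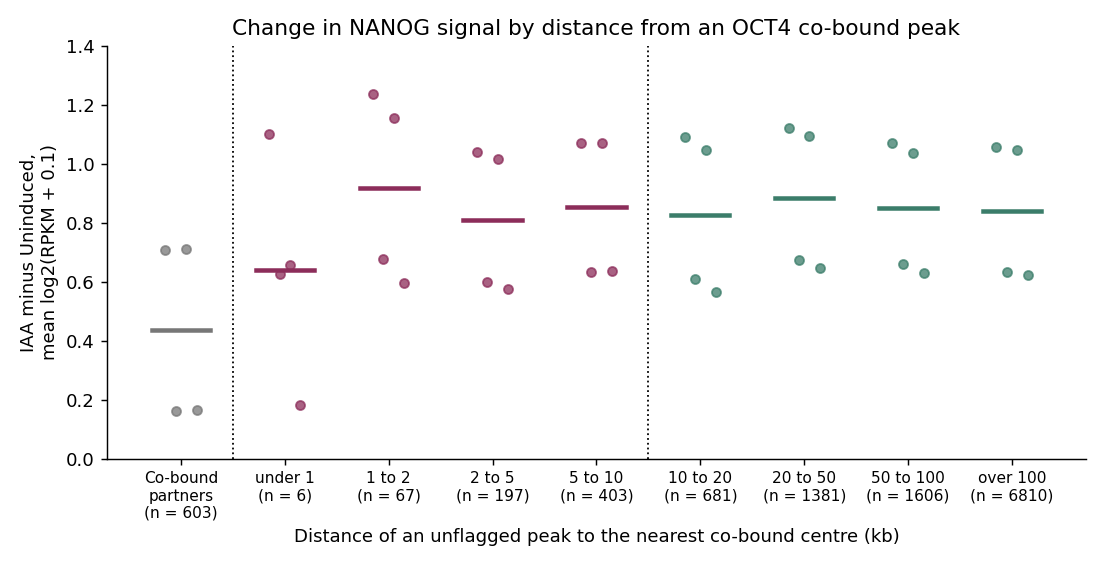
Change in mean log2(RPKM + 0.1), IAA minus Uninduced (y axis), for partners (grey), neighbours in 4 distance classes (purple) and distant unflagged peaks in 4 distance classes (green), by distance to the nearest co-bound centre in kb (x axis). Points are the 4 pairs of an IAA with an Uninduced library and bars their mean: 0.44 for partners, 0.64 for the 6 peaks under 1 kb, and 0.81 to 0.92 in the 7 remaining classes.

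Peak by peak, 616 of 673 neighbours (91.5%) had a positive log2 change, against 90.9% of distant peaks and 76.1% of partners. The median change was 0.83 (quartiles 0.44 and 1.26), and values ran from -1.50 to 2.94. Both IAA values lay above both Uninduced values at 456 neighbours (67.8%), where the share over all bound peaks was 60.5%. They lay below at 13 neighbours (1.93%), against 4.23% of all bound peaks. Partners stood at 46.1% above and 8.96% below, and distant peaks at 67.4% and 2.05%. Under quantile normalization the split among neighbours was 182 above and 109 below, and the shares over all bound peaks were not computed there. Single peaks were tested in limma, a linear model fitted to all 16608 bound peaks on log2(RPKM + 0.1) with Benjamini-Hochberg adjustment. Its standard error (SE) for a peak came mainly from a trend of spread with signal over all bound peaks. The spread between a peak's own libraries thus had little weight in its p-value. At an adjusted p of 0.05 in limma, 126 neighbours (18.7%) passed as higher, where 15% of all bound peaks did. Without the trend 8 neighbours did, and 157 of all bound peaks. No neighbour passed as lower in limma, where 0.337% of all bound peaks did. At an unadjusted p under 0.05, limma had 1 neighbour lower, near Fgfr1, and 143 of all 16608 bound peaks. At the adjusted threshold voom on the recovered reads called 0 neighbours lower, and 55 of all bound peaks. The limma count of 126 fell to 0 under quantile normalization, where all bound peaks also had 0 higher. With 1 library left out, 1 condition has a single library and the count was unstable. The median change of neighbours was then 0.59 without Uninduced 1 and 1.06 without Uninduced 2, beside 0.51 and 0.94 over all bound peaks.

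Set against its own partner, the neighbour had the larger log2 change in 463 of 673 pairs (68.8%). The median difference was 0.40 (quartiles -0.15 and 0.98). Neighbours had the lower mean signal in 458 pairs (68.1%). The median neighbour minus partner level within pairs was -0.65 in Uninduced 1, -0.66 in Uninduced 2, -0.18 in IAA 1 and -0.24 in IAA 2, without overlap between conditions. Across pairs the changes were weakly related, with Pearson's r of 0.107 and Spearman's rho of 0.109 (n = 673 pairs, which share the 4 libraries and in part their partner). For counts this low that is a description only.

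Neighbours of partners with lower values after IAA had a positive change in a share near that of all neighbours. The pairs were sorted by the measured change of the partner, so the values are given without a test. Of 63 neighbours whose partner had both IAA values below both Uninduced values, 56 had a positive change (88.9%, against 91.5% of all neighbours). Their median was 0.71 (quartiles 0.39 and 1.13), while the median partner change in these pairs was -0.65. In 38 of the pairs the neighbour had both IAA values above and the partner both below, with a median change of 0.94 at the neighbour and -0.61 at the partner. The 305 neighbours of partners that lay above in both IAA libraries had a median change of 0.88 (quartiles 0.52 and 1.33), and their partners 0.90. Both IAA values lay above at 223 of these 305 neighbours (73.1%), against 38 of 63 (60.3%), and 65 of 305 (21.3%) passed limma as higher, against 6 of 63 (9.52%). In 3 pairs, near Fgfr1, Grsf1 and Sema6a, both peaks lay below after IAA, and in 3 more, near Akr1d1, Ncor1 and Strap, the neighbour lay below and the partner above (these genes were named after their values were seen).

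**Figure D3:**
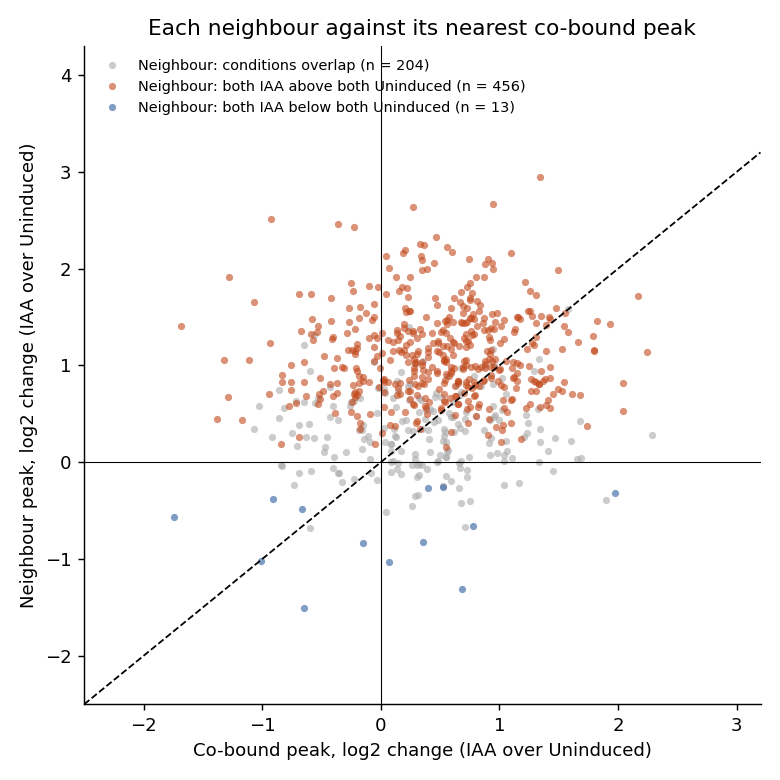
Log2 change (IAA over Uninduced) of each of the 673 neighbours (y axis) against that of its nearest co-bound peak (x axis). Points are pairs, coloured by whether the neighbour's IAA values both lie above (orange, 456) or both below (blue, 13) its Uninduced values or overlap them (grey), and 463 points lie above the dashed line of equal change.

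Groups of neighbours by the number and kind of co-bound peaks nearby are described without a test. The 595 neighbours with 1 co-bound peak within 10 kb had a mean log2 level of 1.12 and 1.57 in the Uninduced and 2.22 and 2.20 in the IAA libraries, a change of 0.86. The 78 with 2 or more had 1.29 and 1.76, then 2.27 and 2.21, a change of 0.71. Both groups were higher after IAA in every pairing of libraries, by 0.63 to 1.09 and by 0.45 to 0.98. The groups share the same libraries, so the overlap of these ranges does not compare them. Within each library the group with 2 or more had the higher level. That gap was smaller in both IAA libraries than in both Uninduced libraries, which was not tested. Median changes were 0.84 and 0.75, and 0.64 for the 16 neighbours with 3 or more co-bound peaks, with 19.2%, 15.4% and 12.5% past limma as higher. Neighbours whose partner belongs to the active enhancer class (n = 204) changed by 0.90, and those whose partner has no chromatin class (n = 432) by 0.82. The former had the higher mean level in each library, and by more in both IAA libraries than in both Uninduced libraries. Where the partner window held the octamer (n = 51) the change was 0.86, and where it did not (n = 622) it was 0.84. The 14 neighbours with a co-bound peak on both sides had a median change of 0.73, against 0.83 for the rest. Median changes were 0.85 for intronic and 0.80 for intergenic neighbours.

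The genes below are named by the nearest protein-coding transcript start, which does not make them targets of the peak. Of 71 genes in 4 lists, 17 had a neighbour nearest to them, with 28 neighbours in all. Of these 28, 25 had a positive change, 20 had both IAA values above both Uninduced values and 8 passed limma as higher. The median change was 1.01, against 0.83 over all neighbours. Since 91.5% of all neighbours had a positive change, 67.8% lay wholly above and 18.7% passed limma, the counts below are descriptions of these peaks, and shares near those are not results about a list.

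Among genes of naive pluripotency, the state held by LIF with inhibitors of MEK and GSK3, 6 of 17 had neighbours. All 8 of these peaks had a positive change, 6 lay wholly above and 2 passed limma, shares near those of all neighbours in so few peaks. Tfcp2l1, a transcription factor downstream of LIF, had a neighbour at chr1:118687679-118688029, intergenic and 2073 bp from its partner, with 2.42 and 1.22 RPKM in the Uninduced libraries and 4.64 and 7.91 RPKM in the IAA libraries. Its log2 change was 1.76 (SE 0.51; limma adjusted p = 0.0125), and its partner, at 1.73, 3.17, 3.05 and 4.74 RPKM, overlapped between conditions. Near Tbx3, a T-box factor of the same network, the strongest neighbour had 3.46, 5.86, 6.97 and 11.6 RPKM and did not pass limma (log2 change 0.98, SE 0.43, adjusted p = 0.094). Another, 9943 bp from its partner, had 2.08, 5.37, 7.25 and 10.01 RPKM and passed (log2 change 1.32, SE 0.44, limma adjusted p = 0.0296). The neighbour near Socs3, the feedback inhibitor of LIF signalling, had 2.42, 1.95, 4.21 and 5.80 RPKM, and that in an intron of Fgf4, a growth factor secreted by ESCs, had 1.73, 1.46, 3.63 and 3.16 RPKM. Both lay above in both IAA libraries without passing limma (adjusted p = 0.0929 and 0.179). Near Klf5 and Prdm14, both regulators of naive identity, the conditions overlapped, with 3.11, 2.20, 2.76 and 3.16 RPKM at Klf5 and 3.46, 4.39, 5.66 and 3.16 RPKM at Prdm14. The Klf5 partner, in contrast, had 10.4 and 14.2 RPKM before IAA and 7.40 and 7.38 RPKM after it.

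Among 22 genes of general pluripotency, 6 had neighbours, and all 10 peaks had a positive change. Of these, 9 lay wholly above, where 67.8% of all neighbours did, and 2 passed limma, where 18.7% did. Mycn, a MYC family gene, had the larger change of those that passed, with 3.11 and 1.95 RPKM before and 5.51 and 9.49 RPKM after IAA (log2 change 1.51, SE 0.47, limma adjusted p = 0.0185). Its partner, 9573 bp away, rose as well, from 5.19 and 8.54 to 17.0 and 17.4 RPKM. At Foxd3, a forkhead factor, the neighbour had 2.77, 1.71, 4.21 and 7.91 RPKM (log2 change 1.37, SE 0.49, limma adjusted p = 0.0411). It stood 4868 bp from a very strong partner of 37.7 and 50.5 RPKM before and 37.7 and 61.1 RPKM after IAA, whose conditions overlapped. In an intron of Jarid2, a component of Polycomb repressive complex 2, neighbour and partner differed in opposite directions. The neighbour had 3.11 and 5.12 RPKM before and 7.11 and 10.01 RPKM after IAA (log2 change 1.06, SE 0.44, limma adjusted p = 0.0744), while the partner 8786 bp away had 5.19 and 10.01 RPKM before and 3.77 and 2.11 RPKM after (log2 change -1.32, SE 0.46, limma adjusted p = 0.0348). Near Sox2, whose product pairs with OCT4, the neighbour in a non-coding exon of Sox2ot had 1.73, 3.66, 4.21 and 5.80 RPKM, above in both IAA libraries but short of the limma threshold (adjusted p = 0.156). The neighbours near Tet1, a methylcytosine dioxygenase, and Sall1, a zinc finger factor, had 2.08, 1.22, 4.50 and 2.63 RPKM and 1.73, 2.93, 3.05 and 4.74 RPKM. These too lay above without passing limma.

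Among 14 genes of signalling feedback, 4 had neighbours, with 7 of 8 peaks of positive change and 4 past limma, beside 91.5% and 18.7% of all neighbours. Il6st encodes gp130, the shared receptor subunit through which LIF signals. Its neighbour had 4.50 and 5.86 RPKM before and 13.3 and 14.2 RPKM after IAA (log2 change 1.41, SE 0.42, limma adjusted p = 0.0161), and its partner, 4664 bp away, went from 2.08 and 2.20 to 5.22 and 7.91 RPKM. Spry2 encodes an inhibitor of receptor tyrosine kinase signalling, and its stronger neighbour had 4.50, 11.2, 19.3 and 22.7 RPKM (log2 change 1.54, SE 0.43, limma adjusted p = 0.00943). The other Spry2 neighbour that passed limma had 0.692, 2.68, 3.34 and 5.80 RPKM (log2 change 1.60, SE 0.56, adjusted p = 0.0364). Etv5, an ETS factor induced by FGF signalling, had peaks in both directions. One, in an intron of Dgkg, had 1.38, 0.488, 2.47 and 5.27 RPKM and passed limma (log2 change 1.99, SE 0.64, adjusted p = 0.024), while the strongest, in an Etv5 intron, overlapped at 2.77, 4.15, 3.19 and 3.69 RPKM. The remaining one, also in an Etv5 intron, was the list's only peak with a negative fitted change, at 3.46, 3.17, 3.77 and 1.58 RPKM, again with overlap. Near Dusp6, a phosphatase of ERK, the neighbour had 1.73, 3.66, 5.22 and 3.16 RPKM with overlapping conditions.

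Of 18 early lineage genes, Otx2 alone had neighbours. Otx2 is a homeobox gene that is switched on as cells leave the naive state. Its stronger neighbour, in an intron of Otx2os1, had 3.46 and 5.37 RPKM before and 3.77 and 4.22 RPKM after IAA, and the other had 1.38, 3.42, 4.21 and 1.05 RPKM. Neither separated the conditions, and the partner of the stronger one, whose octamer is printed above, had 3.46, 2.44, 2.03 and 3.69 RPKM.

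**Figure D4:**
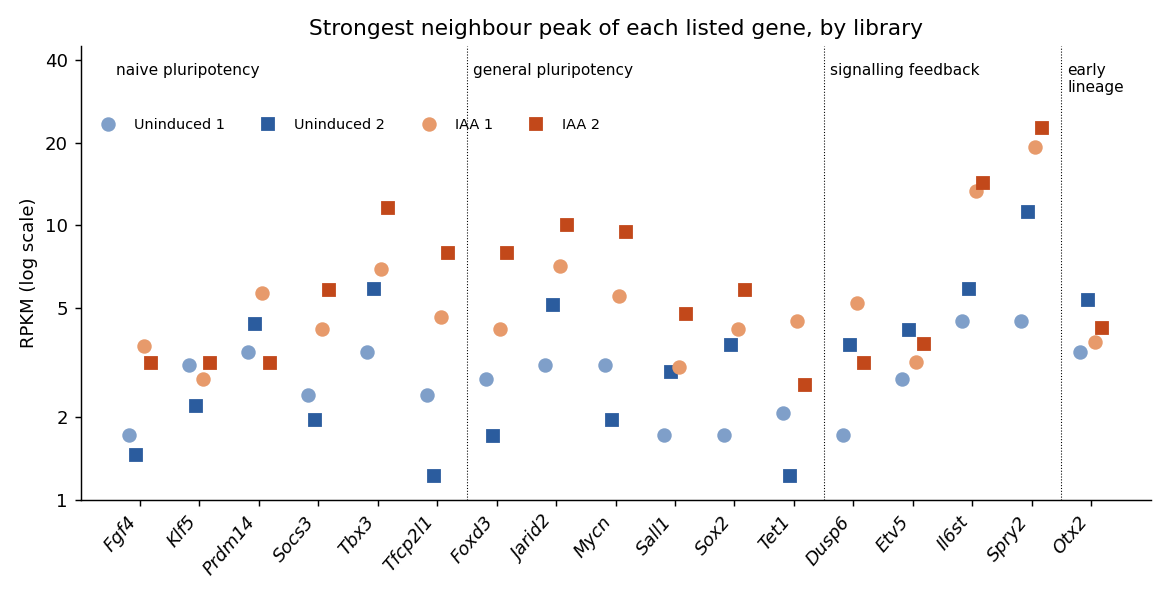
RPKM on a log scale (y axis) of the strongest neighbour of each of the 17 listed genes (x axis) in each library (blue, Uninduced; orange, IAA; circles, replicate 1; squares, replicate 2). At 12 of the 17 both IAA values lie above both Uninduced values, and at Klf5, Prdm14, Dusp6, Etv5 and Otx2 they overlap.

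The peaks nearest to a co-bound centre differed among themselves. Closest of all was a peak in an intron of Mkln1os, at chr6:31372636-31372986 and 504 bp from its partner, whose central bases are printed above. It had 1.04 and 2.44 RPKM before and 3.34 and 4.74 RPKM after IAA (log2 change 1.26, SE 0.56, limma adjusted p = 0.0935), while its partner had 4.15 and 4.39 RPKM before and 3.05 and 2.63 RPKM after. The windows thus differed in opposite directions in all 4 pairings of libraries, at a separation not much larger than a window. At 529 bp, near Gm10134, the neighbour had 3.11, 0.976, 2.61 and 3.69 RPKM, and at 725 bp, near Nfe2l2, 1.73, 2.93, 4.35 and 1.58 RPKM. The next, at 956 bp in Tex14 and at 972 bp in Cald1, had 2.77, 2.93, 5.08 and 1.05 RPKM and 2.42, 7.32, 5.08 and 4.22 RPKM. All of these 4 overlapped between conditions, whereas their partners lay above in both IAA libraries. The sixth peak under 1 kb, 989 bp from its partner near Nt5dc3, had 2.42 and 4.64 RPKM before and 10.6 and 12.1 RPKM after IAA, and it passed limma (log2 change 1.73, SE 0.43, adjusted p = 0.00489).

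The 5 strongest neighbours, picked by mean RPKM over all 4 libraries and so in part by their IAA values, all lay above in both IAA libraries. In the strongest of the 4 signal groups 80.3% of neighbours and 80.5% of distant peaks did. The peak near Wdr11, at chr7:129429915-129430265, had 15.2, 21.7, 24.7 and 29.5 RPKM (log2 change 0.57, SE 0.46, limma adjusted p = 0.366). In an intron of Elovl6, which encodes a fatty acid elongase, the values were 9.0, 14.9, 23.2 and 27.9 RPKM (log2 change 1.13, SE 0.44, limma adjusted p = 0.0591), and its partner overlapped at 4.15, 6.35, 5.08 and 5.27 RPKM. Epha4, an ephrin receptor gene, had an intronic neighbour of 14.2, 15.9, 17.0 and 21.1 RPKM, and Ccm2, a scaffold protein gene, one of 12.1, 13.2, 19.6 and 22.7 RPKM. The fifth, in an intron of Tmem241, had 6.92, 11.96, 22.2 and 24.8 RPKM and alone of the 5 passed limma (log2 change 1.36, SE 0.43, adjusted p = 0.0229). Apart from that peak and the one at Elovl6, log2 changes among the strongest neighbours were below 0.83, the median over all neighbours.

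The largest increases started from few reads. Near Myh13, a myosin heavy chain gene, the neighbour went from 0.346 and 1.95 RPKM (1 and 8 reads) to 6.67 and 7.91 RPKM (log2 change 2.94, SE 0.55, limma adjusted p = 0.000116). Its change was 1.84 without Uninduced 1 and 4.05 without Uninduced 2, and leaving out either library also moved the changes near Rora, Tuba1a and Zfp148 by more than their SE. In an intron of Rora, a nuclear receptor gene, the neighbour went from 1.04 and 0.244 RPKM (3 reads and 1 read) to 4.06 and 3.69 RPKM (log2 change 2.67, SE 0.69, limma adjusted p = 0.00587). Its Uninduced mean of 0.641 RPKM was under the 0.9 RPKM threshold. It was thus a member only through its IAA values, and its p-value is not independent of that choice. The neighbour near Tuba1a, an alpha-tubulin gene, 1958 bp from its partner, had 1.04, 3.17, 10.01 and 14.2 RPKM (log2 change 2.64, SE 0.45, limma adjusted p = 2.25e-05), and its partner overlapped at 2.42, 4.39, 4.93 and 3.16 RPKM. At Zfp148, a zinc finger factor gene, the intronic neighbour had 1.04 and 2.20 RPKM before and 7.54 and 11.1 RPKM after IAA (log2 change 2.52, SE 0.48, limma adjusted p = 0.000174). Its partner, 7290 bp away and in the active promoter and active enhancer classes, had 8.65 and 11.5 RPKM before and 3.92 and 6.85 RPKM after. The fifth, in an intron of Slc1a7 with Podn as nearest start, had 1.04, 0.976, 5.66 and 6.32 RPKM (log2 change 2.46, SE 0.56, limma adjusted p = 0.00204), and its partner lay below in both IAA libraries at 2.77, 3.17, 2.47 and 2.11 RPKM. All 5 passed limma, but they were picked for the size of the same change, so this is no separate result. In 2 of the 5 pairs the partner had both IAA values below both Uninduced values.

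None of the 5 largest falls passed limma. The neighbour in an intron of Slco5a1, a transporter gene, had 1.73 and 0.976 RPKM before and 0.290 and 0.527 RPKM after IAA, the latter 2 reads and 1 read (log2 change -1.50, SE 0.91, limma adjusted p = 0.222). Near Akr1d1, a steroid reductase gene, the values were 1.04, 1.71, 0.435 and 0.527 RPKM, while the partner 1807 bp away had 7.26, 13.2, 14.4 and 17.4 RPKM. Better covered was the neighbour near Fgfr1, which encodes an FGF receptor, with 3.46, 7.57, 2.90 and 2.11 RPKM (log2 change -1.02, SE 0.49, limma adjusted p = 0.124). Its partner, 7342 bp away, also lay below in both IAA libraries, with 3.80, 6.10, 2.61 and 2.11 RPKM. The remaining 2, in introns of Tspan5 and Morc1, had 4.84, 2.93, 2.03 and 1.58 RPKM and 2.77, 2.44, 1.89 and 1.05 RPKM.

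Where several neighbours shared a partner they could be compared within one locus. The partner with 4 neighbours lies in Arid5b, a gene of an ARID DNA-binding protein, and had 4.50, 7.08, 9.14 and 10.5 RPKM. From the farthest to the nearest, at 8941, 7719, 5155 and 2722 bp, its neighbours had log2 changes of 0.83, 1.48, 0.69 and 1.32, without an order by distance. All 4 lay above in both IAA libraries, and those at 7719 bp (1.38, 4.15, 6.97 and 6.85 RPKM) and 2722 bp (2.77, 6.59, 11.2 and 10.5 RPKM) passed limma (adjusted p = 0.0222 and 0.0248). In Sgms1, a sphingomyelin synthase gene, the partner overlapped at 4.50, 6.35, 4.64 and 4.74 RPKM, while its 3 neighbours all lay above in both IAA libraries. Of these the one at 5733 bp went from 2.42 and 3.17 to 8.56 and 7.38 RPKM (log2 change 1.49, SE 0.45, limma adjusted p = 0.0178). Near Cckar, a cholecystokinin receptor gene, the partner overlapped at 6.23, 7.81, 7.40 and 7.38 RPKM and so did its 3 neighbours, for example the nearest at 2016 bp with 4.50, 7.08, 6.53 and 6.32 RPKM. In Dennd2c, the other locus with 3 neighbours (named after its values were seen), all 3 lay above in both IAA libraries while the partner overlapped at 4.50, 7.81, 5.66 and 2.11 RPKM.

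**Figure D5:**
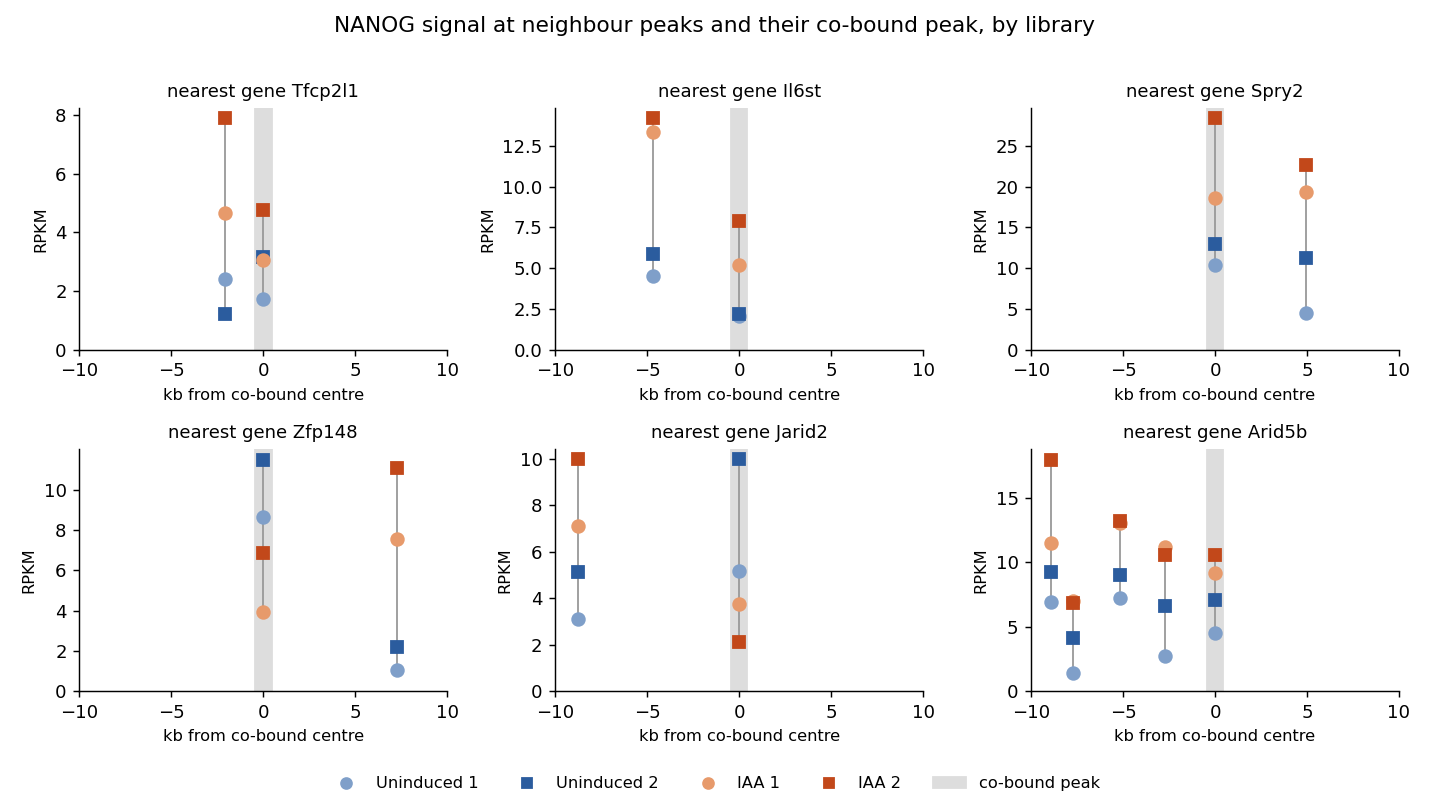
RPKM (y axis, from 0) of neighbours and their co-bound peak (grey band) in each library (blue, Uninduced; orange, IAA; circles, replicate 1; squares, replicate 2) by distance from the co-bound centre in kb (x axis) at 6 loci. At Zfp148 and Jarid2 the orange points lie above the blue ones at the neighbour and below them at the co-bound peak, and at Il6st, Spry2 and Arid5b they lie above at both.

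Of the neighbours that hold the octamer, 4 of 6 lay above in both IAA libraries, where 67.8% of all neighbours did. The one in Akap12, a kinase anchor protein gene, had 0.346, 1.71, 2.90 and 5.27 RPKM (log2 change 2.16, SE 0.64, limma adjusted p = 0.0141). In Sorl1, a sorting receptor gene, the values were 3.11, 1.22, 5.51 and 5.80 RPKM (log2 change 1.48, SE 0.50, limma adjusted p = 0.0308), and in Rbpj, the DNA-binding effector of Notch signalling, 1.04, 1.95, 2.32 and 4.74 RPKM (log2 change 1.16, SE 0.59, limma adjusted p = 0.143). The peaks in Acss1 and Ireb2 overlapped, at 2.08, 3.42, 3.19 and 2.63 RPKM and 3.46, 3.90, 2.61 and 4.22 RPKM. The last, near B4galt6, had 1.04, 1.95, 4.06 and 4.74 RPKM and passed limma (log2 change 1.56, SE 0.56, adjusted p = 0.0407).

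At the limits of the rule, the outermost neighbours were those near Col23a1 (9985 bp; 0.692, 1.46, 4.50 and 4.74 RPKM), Snai1 (9995 bp; 1.38, 4.88, 5.37 and 4.22 RPKM) and Galnt7 (9995 bp; 2.42, 3.90, 3.34 and 1.05 RPKM). Just outside 10 kb, the peaks near Hspb8 had 1.04, 2.44, 5.51 and 3.16 RPKM, near Car2 1.73, 1.95, 2.90 and 2.11 RPKM and near Rtp2 1.73, 2.20, 3.63 and 5.27 RPKM. The weakest members, near Naaladl2, Car2 and 4930452B06Rik, had between 0.244 and 1.74 RPKM in single libraries, and the strongest windows left out by the signal threshold, near Dmrt1, Fhit and Dync1i1, between 0.488 and 1.16 RPKM. In all, 43 unflagged windows within 10 kb of a co-bound peak were below the threshold.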

How the data were processed

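NANOG ChIP-seq was measured in 4 libraries grouped by the labels into Uninduced and IAA. Per the labels and methods, the authors aligned reads to mm10 (GRCm38) with Bowtie2 version 2.3.4.3, called peaks with MACS2 on pooled reads, and computed RPKM with DiffBind in 0.351 kb windows at summits. The deposited values are RPKM, and the deposited value per condition equals the mean of its 2 libraries to within 5e-06 RPKM. The flags deposited with the peaks come from published OCT4 and chromatin data of other ESC lines. RPKM values were whole multiples of 1 read in 100% of windows (tolerance 0.001 reads), which gave the depth.

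A pseudocount of 0.1 RPKM was added before log2, which understates changes of low values. Library medians over classes were compared by exact permutation over libraries (scipy 1.17.1). Single peaks were compared by limma 3.58.1 in R 4.3.3, two-sided, with lmFit and then eBayes with a trend in the variance. Its p-values were adjusted by Benjamini-Hochberg across all bound peaks and called under 0.05. The fit was first run on simulated reads with no shift shared by most peaks, so that run does not show how the calls behave here. Peaks are not replicates, so no test ran over peaks. Positions and genes come from GENCODE mouse release 21, and sequences from the GRCm38 reference. Alternatives were other pseudocounts, thresholds, distances, scalings and fits and each library left out. Reads were not re-aligned, and coordinates are 1-based.

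The members, gene lists and tests were chosen with earlier results of these data known. Named peaks were the 5 closest to a co-bound centre, the 5 strongest by mean RPKM, the 5 largest rises and falls among peaks whose conditions do not overlap, the strongest neighbour of each listed gene, all neighbours of the 3 partners with most neighbours, and 3 peaks on each side of both limits. Octamer-bearing peaks, further limma calls near listed genes and members of small counts were added after their values were seen. Log2 changes of single peaks are given only where the conditions do not overlap, and of partners where a comparison needs them.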

Additional observations from a re-analysis of the deposited data

How the results depend on the processing

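The difference between neighbours and partners kept its direction under every alternative run (0.29 to 0.47 with 1 library left out, 0.34 under quantile normalization), and so did the change at neighbours (0.53 to 1.01 with 1 library left out). Leaving out 1 library could not turn either sign, since all pairs of an IAA with an Uninduced library shared it. The replicate block and a demand that windows not overlap left both values unchanged and could not have moved them. The change of neighbours minus distant peaks, 0.01, took the other sign at a threshold of 2 RPKM (-0.0122), over all windows (-0.0617), at 20 kb (-0.00471), against peaks beyond 100 kb (-0.0526), within signal groups (-0.0557), with library means (-0.00192) and with at least 2 reads in every library (-0.0353), and ran from -0.0606 to 0.0878 with 1 library left out. Against clustered distant peaks, -0.01 became 0.0237 at 2 RPKM, 0.0283 under quantile normalization and 0.000556 with at least 2 reads, and ran from -0.0726 to 0.0486. For neighbours under 2 kb minus those at 5 to 10 kb, -0.09 became 0.0387 at 2 RPKM, 0.0207 over all windows and 0.0427 with library means, and ran from -0.209 to 0.0239. The conditions did not overlap over all windows and within signal groups for the first, nor within signal groups (-0.0415) and with library means (-0.0079) for the second (exact permutation p = 0.333, the smallest possible), and the cause was not tested. Within signal groups, library means gave 0.0031 and -0.0033, with overlap. Higher calls in limma numbered 0 under quantile normalization, 8 without a variance trend, 27 at an adjusted p of 0.01 and 0 to 321 with 1 library left out, and lower calls 0 to 1. Of 16608 bound peaks, limma called 0 higher under quantile normalization, 157 without a variance trend and 534 at an adjusted p of 0.01. With 1 library left out, 1 condition has a single library, so those counts are no result about the neighbours. Quantile normalization turned the changes near Wdr11 (-0.14), Epha4 (-0.40), Ccm2 (-0.011), Sall1 (-0.0071) and Arid5b at 5155 bp (-0.0049), and moved 37 more of the 44 named changes by more than their SE (Mkln1 from 1.26 to 0.47). Leaving out Uninduced 1 or Uninduced 2 moved 16 of the 44 so. Deviations of same-numbered libraries correlated at 0.005, so no pairing by number was seen. At so few reads per peak this cannot exclude one. With a replicate block limma called 133 higher and 0 lower, beside 2655 and 52 over all bound peaks. The 5 library differences (0.77, 0.01, -0.01, 0.38 and -0.09) are the same with the block by arithmetic, so they are no check of it. Library means (also within signal groups), the read minimum and ATGNAAAT were chosen after seeing the data. Depth limits single peaks most in Uninduced 1 and IAA 2, where the median neighbour had 6 and 8 reads.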
